A study of Oryza sativa with 12 samples.

Results

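Respiratory burst oxidase homologues (Rboh proteins) are the NADPH oxidases of the plant plasma membrane. They take electrons from NADPH in the cytosol, pass them through flavin and haem groups across the membrane, and reduce oxygen outside the cell to superoxide, which superoxide dismutases turn into hydrogen peroxide. Their activity is raised by calcium, which binds EF-hands in their N-terminal part, by calcium-dependent protein kinases and by small GTPases of the ROP (Rac) family. In the anther, a timed production of such oxidants belongs to the programmed death of the tapetum, the innermost wall layer that feeds the microspores, and in Arabidopsis the family member RBOHE is needed for that timing.

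The genes described here are RbohG (LOC_Os09g26660, chromosome 9), RbohC (LOC_Os05g45210, chromosome 5) and RbohH (LOC_Os12g35610, chromosome 12), 3 of the 7087 rice genes that the authors' tables list at either of the anther stages sampled. They were chosen by their locus identifiers because the authors had called each of them as changed, so the difference between the genotypes is what selected them, and it is given below as a description without a test. The tables give identifiers only. The symbols follow the published naming of the rice Rboh family as recalled, and of its 9 members the reference gene table at hand named only RbohB.

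Anthers of wild-type rice and of the nup1 mutant were collected at stages 10 and 11, in 3 biological replicates for each of the 4 combinations of genotype and stage, 12 libraries in all. The labels give neither the cultivar nor the locus mutated in nup1, so no targeted gene could be checked. The series title connects the mutant with an oxidative burst, loss of the tapetum's Ubisch bodies and male sterility. Levels are given in FPKM, the number of fragments scaled to transcript length and to the mapped fragments of the library, so that genes of different length can be compared.

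Both tables hold called genes only, 3453 at stage 10 and 5084 at stage 11, and depth in fragments is unknown. Tapetum markers were high in the labelled tissue, with the listed ones summing to 12707 to 16653 FPKM per wild-type library at stage 10. A pair of libraries stood apart: wild-type replicate 2 at stage 10 lay more than 2-fold away from its fellow replicates in 8.43% of fitted genes, and nup1 replicate 1 at stage 11 in 7.63%. In the other libraries that share was 0.260% to 4.94%.

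At stage 10 RbohG was the Rboh gene listed, and it was higher in nup1. The wild-type libraries held 9.10, 7.52 and 12.7 FPKM in replicates 1 to 3. The nup1 libraries held 22.4, 20.7 and 20.3 FPKM. The groups did not overlap, and the lowest nup1 library was 1.59 times the highest wild-type library. All listed genes were selected by this contrast, and the share of them with such a gap was not counted. Nothing is read from the gap, here or for the members below. The means were 9.78 ± 2.67 FPKM in wild type and 21.1 ± 1.14 in nup1 (SD, n = 3), a ratio of 2.16. RbohG thus lay just inside the fold of 2 that the authors required, and genes just outside it are not analysed here. On the scale of log2(FPKM + 1), which understates the change of low genes, the difference was 1.06 ± 0.25 (SE).

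The mutant libraries were alike in RbohG and the wild-type libraries were not, with a coefficient of variation of 5.42% in nup1 and 27.3% in wild type. Wild-type replicate 3 was the highest of its group and replicate 2 the lowest. Replicate 2 was also the wild-type library with the highest listed sums of tapetum markers (16653 FPKM, against 12707 and 13042) and of late pollen and sugar supply markers (438 FPKM, against 188 and 162). Of the 3 tapetum markers lower in nup1, RTS and RAFTIN1 were highest in replicate 2, and RTS spanned 2759 to 6687 FPKM in wild type. OsC6, at 6535 to 7243 FPKM in wild type, was not highest in replicate 2. The 4 markers higher in nup1 went against that sum. Leaving out replicate 2 took the log2 difference of CYP703A3 from 4.08 to 3.19 and of PTC1 from 3.88 to 3.56. That of DPW went from 2.99 to 2.59 and that of CYP704B2 from 2.26 to 1.89, so replicate 2 was low in these 4. Whether those differences bear on RbohG was not tested. Without replicate 2 the log2 difference was 0.91, and without replicate 3 it was 1.25.

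At stage 11 RbohC and RbohH were listed, both higher in nup1, and RbohG was not. RbohC was the more abundant of the pair. Its wild-type libraries held 45.3, 32.1 and 34.7 FPKM in replicates 1 to 3. Its nup1 libraries held 74.3, 110.6 and 80.9 FPKM. The groups did not overlap, the lowest nup1 library being 1.64 times the highest wild-type library, and nup1 replicate 2 stood above the other mutant libraries. The means were 37.4 ± 6.99 and 88.6 ± 19.3 FPKM, a ratio of 2.37, and the log2 difference was 1.22 ± 0.21 (SE).

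RbohH, an oxidase known in rice roots for its part in forming aerenchyma, the air spaces of waterlogged tissue, was a low transcript in these anthers. The wild-type libraries held 1.62, 2.15 and 1.41 FPKM in replicates 1 to 3. The nup1 libraries held 5.67, 6.06 and 6.60 FPKM. The groups did not overlap, the lowest nup1 library being 2.63 times the highest wild-type library. The means were 1.73 ± 0.38 and 6.11 ± 0.47 FPKM, a ratio of 3.54. The log2 difference was 1.39 ± 0.20 (SE) with the pseudocount of 1 FPKM, and 1.84 ± 0.27 with none, since 1 FPKM is large beside the wild-type level of this gene.

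**Figure D1:**
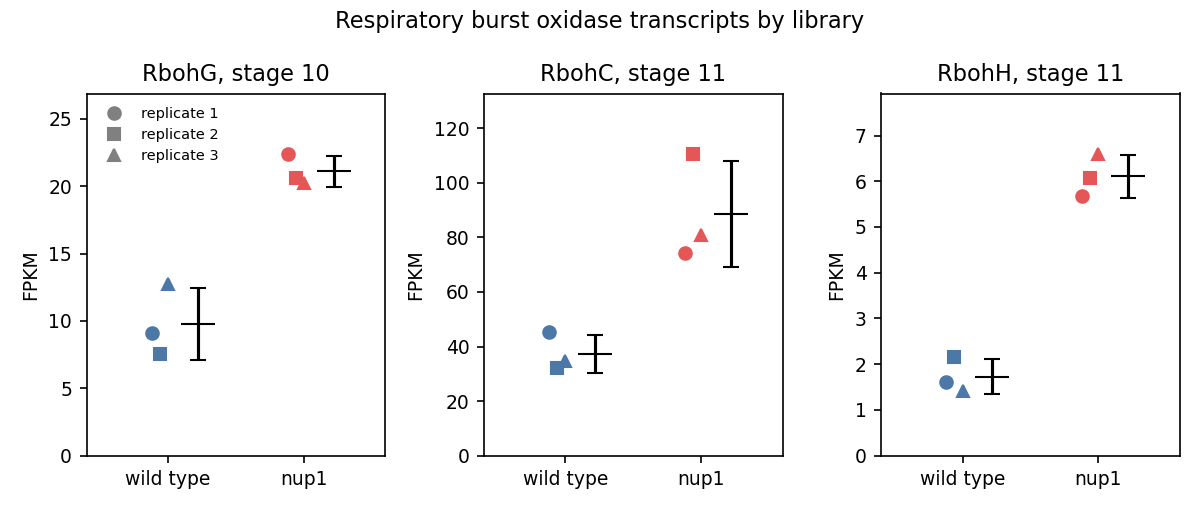
FPKM of RbohG at stage 10 and of RbohC and RbohH at stage 11 in each library (points, shaped by replicate number), with the mean ± SD of 3 libraries beside them in black; each panel has its own linear axis from 0. In each panel the 3 nup1 libraries lie above the 3 wild-type libraries, and the RbohC axis reaches far above that of RbohH. The genotype contrast shown is the one that selected these genes.

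In order of level at stage 11, RbohC in nup1 came first, RbohC in wild type next, then RbohH in nup1 and RbohH in wild type, and no 2 neighbours in that order overlapped in any library. RbohC exceeded 77.1% to 81.5% of the listed genes in wild-type libraries and 91.4% to 95.1% in nup1 libraries. RbohH exceeded 10.4% to 16.8% in wild type and 42.8% to 50.8% in nup1. RbohG at stage 10 was a transcript of middle rank among listed genes, above 53.6% to 65.9% of them in wild type and 73.9% to 75.4% in nup1. The stages were deposited in separate tables that nothing shows to have been normalized together, and no member is listed in both, so the level of RbohG was not ranked against those of RbohC and RbohH.

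The balance of RbohC and RbohH within a library does not depend on how the library was scaled. RbohC was 28.0, 14.9 and 24.6 times RbohH in wild-type replicates 1 to 3. It was 13.1, 18.2 and 12.3 times RbohH in nup1. The mean ratio was 22.5 ± 6.76 in wild type and 14.5 ± 3.24 in nup1 (SD, n = 3), and the groups overlapped, because wild-type replicate 2 lay between the nup1 libraries. As a log2 ratio of RbohH to RbohC, nup1 minus wild type, the difference was 0.60 ± 0.33 (SE). With a pseudocount of 1 FPKM in both genes it was 0.17. These libraries therefore do not separate the change in RbohH from that in RbohC.

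**Figure D2:**
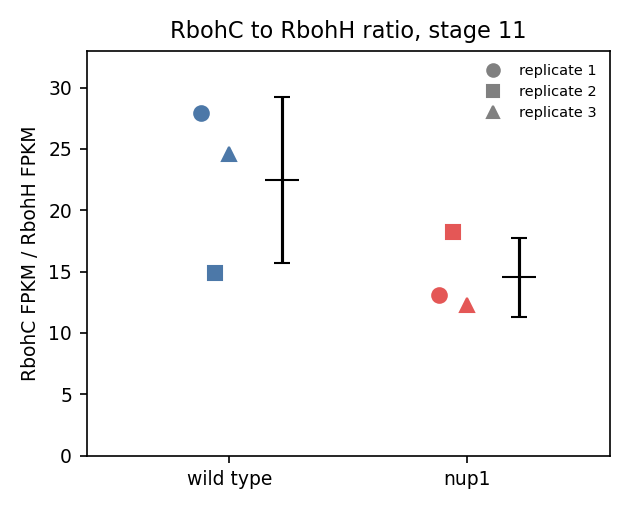
Ratio of RbohC FPKM to RbohH FPKM in each stage 11 library (points, shaped by replicate number) with the mean ± SD of 3 libraries in black, on a linear axis from 0. Wild type spans 14.9 to 28.0 and nup1 spans 12.3 to 18.2, so the groups overlap.

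Set among the genes that the authors called higher in nup1, RbohG was small in size of change, and RbohC and RbohH were ordinary. Of 1942 such genes at stage 10, 15.4% had a smaller ratio of mean FPKM than RbohG, and the median ratio was 3.01. Of 2085 such genes at stage 11, 32.3% had a smaller ratio than RbohC and 69.3% a smaller ratio than RbohH, around a median of 2.73. At the threshold used here for other genes (limma, adjusted p under 0.01 and a fold over 2), 39.8% of the fitted genes at stage 10 and 26.3% at stage 11 passed as higher in nup1. That is the background for the 1 member listed at stage 10 and the 2 listed at stage 11, and since the same contrast chose them, nothing is read from their own calls.

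**Figure D3:**
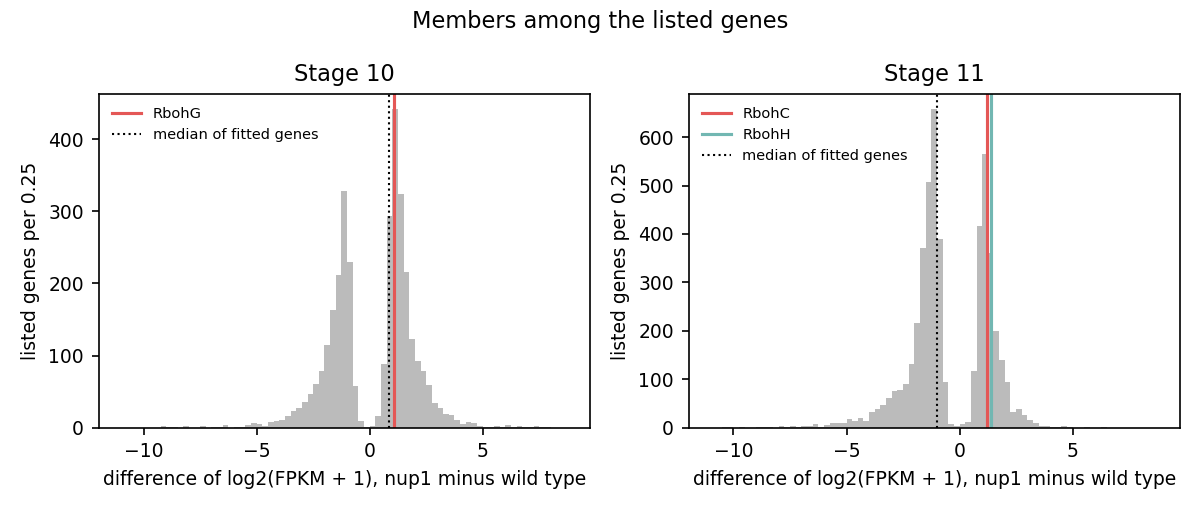
Histograms of the difference of log2(FPKM + 1), nup1 minus wild type, over the 3358 fitted genes at stage 10 and the 4992 at stage 11, in bins of 0.25; coloured lines mark the members and the dotted line the median of fitted genes. The gap around 0 comes from the selection of called genes, and RbohG at 1.06, RbohC at 1.22 and RbohH at 1.39 lie within the main body of the higher genes.

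RbohC and RbohH were higher at a stage where most listed genes were lower. The median log2 difference of fitted genes was 0.85 at stage 10 and -0.98 at stage 11, both over genes already selected as changed. Listed FPKM summed to 209625 to 227419 per wild-type library at stage 11 and to 125358 to 147954 per nup1 library. Because FPKM are scaled to the whole library, a fall of abundant transcripts raises the values of others. Its part in the higher RbohC and RbohH values was not tested, and their ratio to each other is free of it.

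Markers of the anther's cell types moved with the same contrast. At stage 11, 8 of 10 tapetum markers were listed, 7 of them as lower, and the 8 summed to 4388 to 5683 FPKM in wild type and 405 to 1001 in nup1. The limma threshold was passed by 5, each as lower. Some that missed it varied widely between nup1 libraries. OsC6, listed as lower, spanned 11.6 to 496 FPKM there, and CYP704B2, listed as higher, 0.97 to 90.6. Late pollen and sugar supply markers were listed for 4 of 5 genes, each as lower, with sums of 636 to 755 FPKM in wild type and 34.4 to 52.7 in nup1; the cell-wall invertase INV4 was at 0 in nup1 replicate 3. Green tissue genes were listed for 3 of 7, each as lower, with sums of 701 to 1324 FPKM and 407 to 608. In whole anthers a smaller share of cells of a type and less RNA per cell cannot be told apart, and the part of either in the Rboh values was not tested.

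At stage 10 the tapetum markers went both ways beside the higher RbohG. Of 7 listed, 4 were higher and 3 lower, and their sum was 12707 to 16653 FPKM in wild type and 2944 to 3684 in nup1. The 4 of 5 late pollen and sugar supply markers listed were each lower, at 162 to 438 FPKM and 17.3 to 26.8 in sum. The 3 of 7 green tissue genes listed summed to 205 to 367 and 265 to 342 FPKM, ranges that overlap. That sum joins opposite directions, since 1 gene was listed as higher and 2 as lower. LHCB went from 105.8 ± 39.1 to 249.4 ± 31.8 FPKM, and RBCS (LOC_Os12g19381) from 108.6 ± 33.4 to 40.4 ± 9.82. The part of these shifts in the RbohG values was not tested.

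Within nup1 at stage 11, replicate 1, the library that stood apart, was the lowest of its group for RbohC and for RbohH. Its tapetum marker sum was 981 FPKM, against 1001 and 405 in replicates 2 and 3. Without it, the log2 difference was 1.33 for RbohC and 1.43 for RbohH. The highest RbohC value, in nup1 replicate 2, was not matched in RbohH, which was highest in replicate 3.

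Many listed genes had profiles close to those of the members. Over the 6 libraries of stage 10, the profile of log2(FPKM + 1) most like that of RbohG belonged to LOC_Os01g08470 (Pearson's r = 0.999), with 24.2 ± 6.18 FPKM in wild type and 55.7 ± 3.66 in the mutant. At stage 11, LOC_Os06g49890 was most like RbohC (r = 0.998), with 30.0 ± 5.72 and 66.3 ± 12.8 FPKM. LOC_Os09g21796 was most like RbohH (r = 0.998), with 6.30 ± 0.72 and 18.1 ± 1.68 FPKM. These correlations share the genotype difference that selected every gene in the tables: r was above 0.95 for 17.6% of the 3357 genes compared with RbohG, 7.67% of the 4991 compared with RbohC and 10.3% of those compared with RbohH.

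The rest of the Rboh family was listed at neither stage. RbohA, RbohB, RbohD, RbohE, RbohF and RbohI, 6 of the 9 genes, are not analysed here, and neither are the 2 ferric reductases FRO1 and FRO2, which share the haem and flavin domains of Rboh proteins. No Rboh gene was listed at both stages. A gene outside the tables may have been unchanged, too variable or too low.

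A pathway list of 78 genes was followed beside the members. It holds the other 6 Rboh genes, the 2 ferric reductases, and genes that act before or after the oxidases: receptors and their cytoplasmic kinases, ROP GTPases, calcium-dependent protein kinases (CDPKs), superoxide dismutases, catalases, ascorbate peroxidases and plasma membrane aquaporins. At stage 10 the authors listed 17 of them, 8 as higher and 9 as lower. Of these, 9 passed the threshold in limma, 5 higher and 4 lower, beside 72.9% of the 3358 fitted genes in either direction, 39.8% higher and 33.1% lower. The median log2 difference of the 16 fitted pathway genes was -0.13, against 0.85 over all fitted genes. At stage 11 they listed 14, 5 as higher and 9 as lower, and 9 passed, 2 higher and 7 lower, beside 72.3% of 4992 in either direction, 26.3% higher and 46.0% lower. The median of those 14 was -1.02, against -0.98. Centring each library on the median of listed genes turned the split to 0 higher and 8 lower at stage 10 and to 5 higher and 3 lower at stage 11. The 5 higher genes at stage 10 kept positive log2 differences (0.93 to 1.53) but missed the threshold. With quantile normalization the split was 5 higher and 5 lower at stage 10, and 5 higher and 2 lower at stage 11. The balance at stage 11 thus rests on the scaling, and at stage 10 it differed between the scalings. Both scalings used called genes only.

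Among the activators, the ROP list had 2 of 8 members listed beside RbohG at stage 10, and both fell. RAC1, the GTPase that binds the N-terminal part of RbohB and is known from rice immunity, went from 43.2 ± 5.20 to 11.3 ± 0.82 FPKM (log2 difference -1.84 ± 0.22, limma adjusted p = 0.000168). RAC4 went from 131.8 ± 9.01 to 58.7 ± 13.2 FPKM (-1.17 ± 0.25, limma adjusted p = 0.00235), which was no longer called with nup1 replicate 3 left out (adjusted p = 0.0121) or after quantile normalization. At stage 11, beside the higher RbohC and RbohH, RAC4 rose from 62.8 ± 5.33 to 153.4 ± 26.9 FPKM (1.26 ± 0.17, limma adjusted p = 0.000501). RAC6 fell from 265.1 ± 27.8 to 91.2 ± 7.21 FPKM (-1.53 ± 0.15), a call that ended with quantile normalization. RAC1 fell from 32.6 ± 2.77 to 15.5 ± 3.22 FPKM (-1.04 ± 0.19), a call close to the fold of 2 that ended in 3 of 6 fits leaving out 1 library and under both scalings tried, median centring and quantile normalization. The change of side of RAC4 between the stages was tested over the 1405 genes fitted in both tables. Of these, 21.1% differed in either direction, and RAC4 passed (difference 2.44 ± 0.35 SE, limma adjusted p = 0.000194). The authors' opposite calls of RAC4 at the stages had already selected such a difference, so the pass is no independent support for it.

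Of 29 CDPKs, kinases that phosphorylate Rboh proteins, 3 were listed at stage 10 and 3 at stage 11. At each stage 1 was listed as higher and 2 as lower, and at stage 11 only CPK11 passed the threshold. CPK4 rose at stage 10 from 34.5 ± 19.0 to 77.5 ± 8.81 FPKM (1.27 ± 0.37, limma adjusted p = 0.00883), but the call was lost in 5 of 6 fits on fewer libraries (adjusted p up to 0.0319, with nup1 replicate 1 left out), with a pseudocount of 0.1 FPKM and with median centring. CPK11 fell at stage 11 from 7.44 ± 0.92 to 0.369 ± 0.073 FPKM (-2.62 ± 0.18) and held in each such fit. At stage 10 CPK11 went from 1.97 ± 1.27 to 0.259 ± 0.099 FPKM, a call that ended without any 1 of the nup1 libraries. Without wild-type replicate 2, a library that stood apart, its mean fell under 1 FPKM and it was not fitted. Of 4 genes on the receptor side, the cytoplasmic kinase RLCK176 was listed at stage 11 with 11.1 to 13.2 FPKM in wild type and 22.2 to 28.0 in nup1. It missed the fold of 2 on the log2(FPKM + 1) scale (0.98 ± 0.17). With a pseudocount of 0.1 FPKM RLCK176 passed as higher (1.03 ± 0.17, limma adjusted p = 0.00147).

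Enzymes that take up the products of the oxidases were listed in both directions. Of 7 superoxide dismutases, SODCC1 and SODCC2 were listed as lower at stage 10 and did not pass the fold (-0.995 ± 0.236 and -0.930 ± 0.236). With median centring both passed as lower (-1.19 and -1.13), and with quantile normalization neither did (-0.75 and -0.76). SODCC1 also passed with a pseudocount of 0.1 FPKM and without wild-type replicate 1 or 3. SODCP was listed at stage 11 and fell from 61.2 ± 4.41 to 30.1 ± 3.52 FPKM, again at the edge of the fold (-1.004 ± 0.152); the call was lost without wild-type replicate 2 and without nup1 replicate 3. Of 11 catalases and ascorbate peroxidases, 3 were listed at each stage and APX1 alone passed, at stage 11, where it fell from 1290 ± 67.3 to 611 ± 67.9 FPKM. The calls of SODCP and APX1 ended with median centring and with quantile normalization, and under the latter the sign of APX1 turned (0.06). APX3, a low transcript, was listed as higher at both stages, with 1.81 ± 1.03 FPKM in wild type and 5.32 ± 2.36 in nup1 at stage 10, and 1.01 ± 0.44 and 3.20 ± 1.58 at stage 11. It did not pass at either (limma adjusted p = 0.0107 and 0.0171). With median centring and with quantile normalization it passed as higher at stage 11 (1.46 and 1.54, limma adjusted p = 0.00236 and 0.00146), so the direction of the passing enzymes at that stage rests on the scaling. The catalase CATC was listed as higher at stage 10, with 1.21 ± 0.39 and 2.37 ± 0.34 FPKM, and did not pass. APX5 was listed as lower at stage 10, with 7.54 ± 0.94 and 3.64 ± 0.45 FPKM (-0.88 ± 0.23). APX8 was listed as lower at stage 11, with 46.0 ± 6.57 and 24.0 ± 2.23 FPKM (-0.91 ± 0.17). Neither passed the fold, but APX5 passed as lower with a pseudocount of 0.1 FPKM and under both scalings.

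The aquaporins of the plasma membrane, some of which let hydrogen peroxide into the cell, had 7 of 11 members listed at stage 10 and 3 of 11 at stage 11. PIP2-7 fell at both stages, from 362.3 ± 172.1 to 10.4 ± 3.76 FPKM at stage 10 (-4.96 ± 0.40) and from 275.4 ± 33.3 to 9.46 ± 5.37 at stage 11 (-4.86 ± 0.38). PIP2-6 was higher at both, at 111.3 ± 55.4 and 353.7 ± 144.8 FPKM at stage 10 and at 22.1 ± 2.42 and 65.6 ± 14.6 at stage 11. Its stage 11 call held in each fit that left out 1 library, and its stage 10 call ended in 3 of 6, with median centring and with a pseudocount of 0.1 FPKM. PIP2-4 rose at stage 10 by 1.48 ± 0.40, a call that ended in 4 of 6, with median centring and with a pseudocount of 0.1 FPKM. Its locus number lies next to those of its relatives PIP2-1 and PIP2-5, with which reads may be shared. PIP2-2 fell at stage 11 by 1.05 on the log2 scale, a call lost in 2 of 6 fits on fewer libraries and under both scalings.

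**Figure D4:**
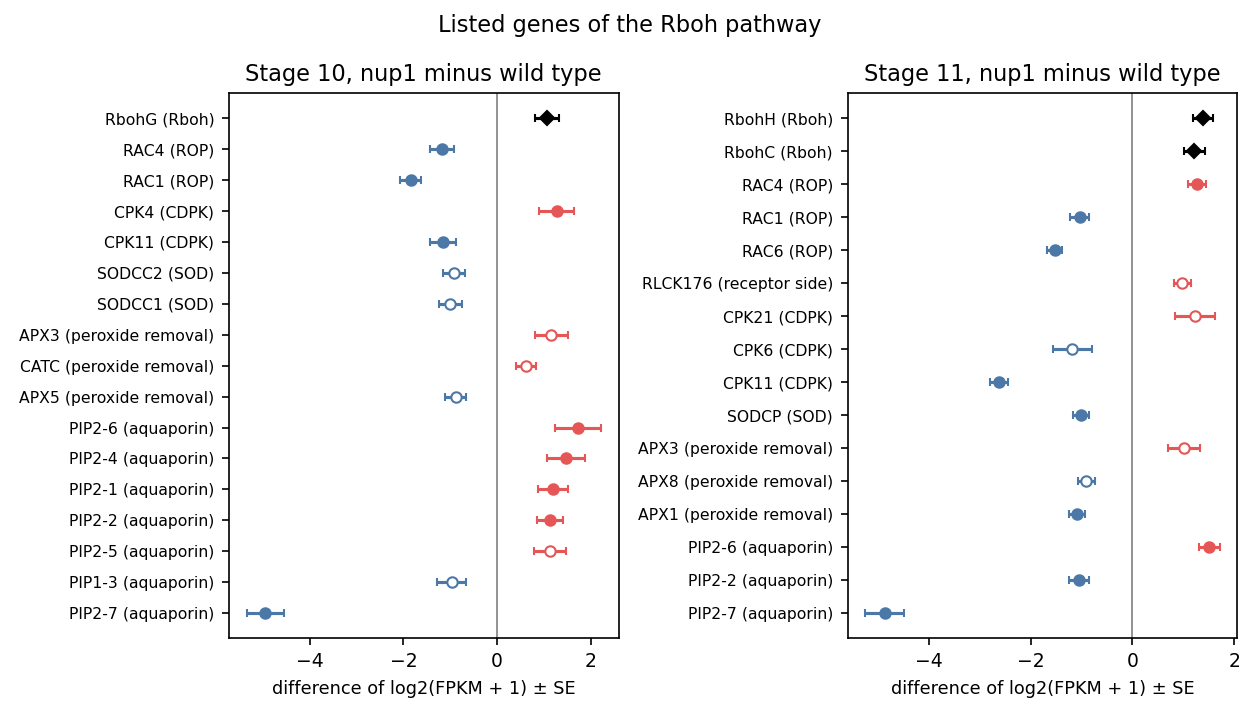
Difference of log2(FPKM + 1), nup1 minus wild type, ± SE for the fitted genes of the Rboh pathway at stages 10 and 11 (6 libraries each). Black diamonds are the members, given without a test; filled circles passed the limma threshold and open circles did not, red for higher and blue for lower. The members lie at 1.06 to 1.39, while PIP2-7 lies near -5 at both stages and RAC4 changes side.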

How the data were processed

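Anther poly(A) RNA was sequenced as paired reads, per the labels' protocols. Trimmed reads were aligned by HISAT2 to the MSU rice genome, release 7, then quantified and compared with Cufflinks (false discovery rate under 0.01, fold over 2), per the series design text. Tool versions were not given in the sources used here. FPKM per library were deposited by the authors in 1 table of called genes per stage, with their direction of change. No counts were used. At most 17.0% of ratios of low FPKM between libraries of a group fell at 1 value (within 1%), too few to fix relative depth, so no counting intervals are given.

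For each stage a linear model of log2(FPKM + 1) on genotype was fitted by limma 3.58.1 (R 4.3.3), using its mean-variance trend, to genes averaging 1 FPKM or more (3358 and 4992 genes). The threshold was an adjusted p (Benjamini-Hochberg) under 0.01 together with a fold over 2. The tables hold selected genes, so these p-values set a change against the spread of 3 libraries and test no authors' call independently. The script was tested on simulated data. The members and lists were chosen with earlier results of these data known. Named genes were the members and up to 3 passing genes of each list with the largest change. Also included were the 3 genes most correlated with each member, of which the first is given. SODCC1, SODCC2, APX3, APX5, APX8, CATC, RLCK176, PIP2-1 and PIP2-5 were named after their values were seen. Of 103 list symbols, 74 lay on the locus's chromosome in the reference table (assembly ASM3414082v1) and 29 were not in it. No sequences were used. Alternatives were other pseudocounts, filters and scalings, no trend, a replicate block and leaving out each library.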

Additional observations from a re-analysis of the deposited data

Results flagged for a closer look

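No member is listed at both stages, so a difference of the nup1 effect between stages could not be tested for RbohC, RbohG or RbohH. Of 7 pathway genes listed at both, 3 differed in that effect, beside 21.1% of all 1405 genes fitted (limma interaction, added after their directions were seen). The effect on RAC4 was -1.17 at stage 10 but 1.26 at stage 11, a difference of 2.44 ± 0.35 (SE, adjusted p = 0.000194), which passed in 12 of 12 fits that left out 1 library. PIP2-2 had effects of 1.13 and -1.05, a difference of -2.18 ± 0.38 (adjusted p = 0.000802), which passed in 12 of 12. RAC4 and PIP2-2 were each listed in opposite directions at the stages. Those calls had already selected a difference, so passing is no independent support for it. CPK11 had effects of -1.16 and -2.62, a difference of -1.46 ± 0.35 (adjusted p = 0.00625), which was lost in 10 of 12 (adjusted p up to 0.0196, leaving out replicate 1 of stage 10 wild type).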

How the results depend on the processing

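RbohG, RbohC and RbohH were higher in nup1 under every alternative run. The genotype contrast had selected them, and their groups did not overlap. Leaving out a library, another pseudocount or a replicate block therefore could not turn the sign, and its constancy is no support for the difference. Leaving out 1 library gave 0.91 to 1.25 for RbohG, 1.05 to 1.36 for RbohC and 1.304 to 1.498 for RbohH (log2). Median centring moved fitted genes by -0.20 at stage 10 and by 0.44 at stage 11, quantile normalization their median by -0.27 and 0.49. RbohG then stood at 0.87 and 0.93, under the fold of 2, RbohC at 1.66 and 1.65, and RbohH at 1.83 and 1.90. RbohH was 1.78 with a pseudocount of 0.1 FPKM and 1.84 with none. The log2 ratio of RbohH to RbohC was 0.17 with a pseudocount of 1 FPKM, and 0.42 to 0.87 with 1 library left out. Pathway genes past the threshold at stage 10 numbered 9, and 2 to 10 with 1 library left out (4 without wild-type replicate 2, 3 without nup1 replicate 1, 2 without nup1 replicate 3). At stage 11 they numbered 9, and 7 to 10 with 1 library left out. The split at stage 10 was 2 higher and 6 lower with a pseudocount of 0.1 FPKM. With quantile normalization it was 5 higher and 5 lower at stage 10, and 5 higher and 2 lower at stage 11. The CPK11 difference between stages did not pass with a pseudocount of 0.1 FPKM or with either scaling. Replicate numbers did not pair the samples (correlation of same-numbered deviations -0.23 to 0.25, and 3 of 6 libraries matched their own number best). With the replicate number as a block, the differences stayed 1.06, 1.22, 1.39 and, for the ratio, 0.60, and 8 and 10 pathway genes passed; the CPK4 call ended.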
